A study of Bos taurus with 18 samples.

Results

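The study's tables link 10 CpGs on bovine chromosome 7 to ARRDC3, the gene of arrestin domain-containing protein 3, by the nearest annotated start site. The members are all CpGs of the deposited methylation table from the first of these to the last, positions 93156072 to 93165390 of the bosTau8 build. They made up 127 of the 31500 CpGs in the table. A CpG is a cytosine followed by a guanine, the main site of DNA methylation in mammalian cells. The members are numbered here from CpG 1 to CpG 127 along the chromosome, and their positions are given as they come up. The ends of the span are CpGs that the supplementary tables of the study list as differentially methylated on these same libraries. Measured values thus entered the choice of the span.

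ARRDC3 is an alpha-arrestin. Alpha-arrestins are adaptor proteins that bring ubiquitin ligases of the NEDD4 family to membrane proteins, and ARRDC3 is known for the ubiquitination and trafficking of beta-adrenergic receptors and for a link to energy expenditure in mice. Methylation of cytosine is written by DNA methyltransferases, which take the methyl group from S-adenosylmethionine, the product of the methionine-folate cycle. Most CpGs of a mammalian genome are methylated, and CpG-rich promoters are the usual exception.

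The cells were EBTr, an established line of bovine embryonic tracheal fibroblasts, grown in media of 2 glucose levels, Low (1 g/L) and High (4.5 g/L). Each glucose level had cells with no added epigenetic modifiers (EM; Control) and cells with EM at ×2.5 and ×5. The EM were folate, choline, vitamin B12 and methionine, of which methionine was raised only ×2 in the supplemented media by the study's methods, whereas the labels give it the same multiple as the rest. The base medium of all 6 treatments held sodium pyruvate, penicillin-streptomycin at 1% and fetal bovine serum at 10%. Reduced representation bisulfite sequencing (RRBS), which reads CpG-rich restriction fragments, was done on 3 libraries per treatment, 18 in all. Every library came from 1 cell line, and nothing in the sources says that the 3 tubes of a treatment were separate cultures, so the p-values measure only the spread between these samples, which may be technical.

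The table holds M-values, which are log2 ratios of the methylated to the unmethylated reads of a CpG. A level in percent was computed from each M-value (M) as 100/(1 + 2^-M), and it still carries the small offset that an M-value needs. Read depth per CpG is unknown here, so no counting error can be attached to a level. The M-values of the libraries were much alike, with Pearson's r between 0.880 and 0.963 across CpGs for every pair of libraries and no pair identical. The mean level over all CpGs lay between 67.2% and 70.0%, and it was lowest in Low Control replicate 3. That library also had the smallest spread of M-values over CpGs, an SD of 1.58 where the other libraries reached up to 1.83.

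The members did not cover the gene or its promoter. In the supplementary tables ARRDC3 lies on the minus strand with its start at higher coordinates than the CpGs, and the distance to that start exceeds the length of the gene, so the CpGs lie outside it, beyond its 3′ end. The assembly of those start sites is not named, and no annotation of bosTau8 was used here, so exons, introns or regulatory elements under the CpGs are not given. In the RefSeq table of the later ARS-UCD2.0 assembly, the protein-coding genes on either side of ARRDC3 were ADGRV1, an adhesion G protein-coupled receptor, and NR2F1, a nuclear receptor.

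The members spanned 9319 bp and fell into 13 groups of neighbours. They were part of 1 stretch of 163 tested CpGs, with 27 CpGs before the first member and 9 after the last one. The nearest other tested CpGs were 3.93 Mb below and 12.7 Mb above that stretch. Neighbouring members were a median of 11.5 bp apart, and the widest gap was 1907 bp. The last CpG outside the span on its lower side had a mean level of 87.5%, close to the 86.8% of CpG 1, whereas the first CpG past the upper end had 42.8% beside the 68.1% of CpG 127. The 36 tested CpGs of the stretch outside the span had a mean level of 76.1%.

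The region was highly methylated in every treatment. The mean level of the 127 members over the 18 libraries was 75.9%, against 68.9% for all 31500 CpGs, and their median was 80.8%, against 75.5%. A mean level of at least 80% was found at 66 members (52.0%) and at 40.9% of all CpGs. Intermediate levels, from 20% to 60%, were found at 16 members (12.6%) and at 25.1% of all CpGs. Near the upper end the members resembled the table, with 13 members (10.2%) and 10.7% of all CpGs at 90% or more. These are descriptions, since neighbouring CpGs share reads and are not independent.

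Low levels were confined to a few CpGs. Only 8 members had a mean below 50%, of which 5 sat in the group of 28 neighbours between 93161981 and 93162484. CpG 74 (position 93162246) had the lowest mean level, 2.81%, and it was the only member under 20%, where 3.37% of all CpGs lay. Its neighbour 8 bp away, CpG 73 (93162238), had 43.8%. The other members below 50% ranged from 33.7% at CpG 4 (93156262) to 46.5% at CpG 97 (93162698). The highest mean, 94.0%, was at CpG 34 (93157760).

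**Figure D1:**
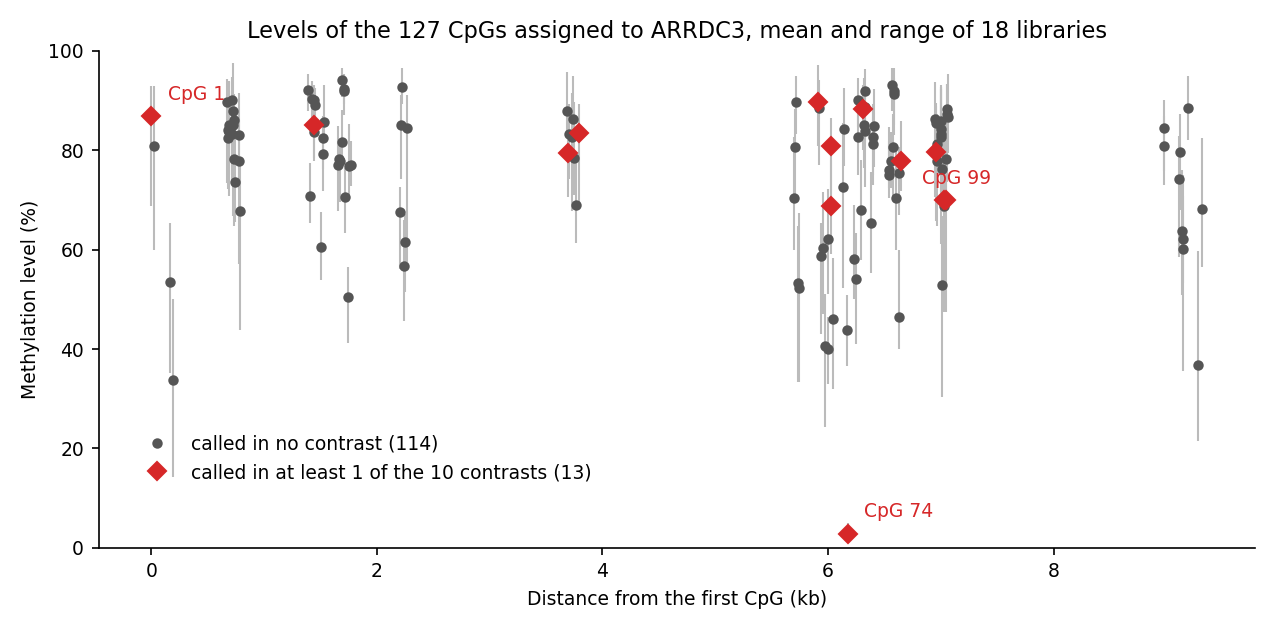
Methylation level in percent against distance in kb from the first member for the 127 CpGs, with the mean of the 18 libraries as a point and the lowest and highest library as a vertical line. Most points lie above 60%, CpG 74 stands alone near 0, and the 13 CpGs called in at least 1 contrast (diamonds) lie among members called in none.

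Levels differed more between groups of neighbours than between treatments. The mean level of a group ran from 43.6% in the pair at 93156237 and 93156262 to 83.8% in the pair at 93156072 and 93156098. Across treatments, the mean of the largest group, the 28 CpGs just named, stayed between 68.2% and 70.4%. The group of 11 CpGs between 93157460 and 93157603 had treatment means only 1.20 percentage points apart at most. The widest treatment range of a group was 10.6 points, in the pair at 93156072 and 93156098, where Low Control had 77.6% and Low ×2.5 had 88.2%.

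Cytosines on opposite strands were usually methylated alike. In all, 14 pairs of members lay 1 bp apart, which places their cytosines on opposite strands, and the median difference in mean level within such a pair was 3.21 points, against 1.83 points over the 6516 such pairs of the table. In 13 of the 14 pairs it was under 10 points, as it was in 6110 of the 6516 pairs of the table. The exception was CpG 109 (93163081), which had 52.9% beside 76.2% at CpG 110 (93163082), lower in 18 of 18 libraries. Deviations from the treatment means went together weakly between partners of a pair (median r = 0.26 over the 14 pairs) and between members 2 to 50 bp apart (median r = 0.11, 365 pairs). At 51 to 500 bp the median r was 0.01 (1125 pairs), and beyond 500 bp it was 0.03 (6497 pairs). The members of a library share its depth, and these correlations are over the 18 libraries.

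The mean level of the members moved by a few points between libraries. In Low Control the 3 libraries had 76.4%, 74.3% and 73.4%, in Low ×2.5 75.7%, 77.0% and 76.4%, and in Low ×5 77.4%, 76.4% and 75.7%. In High Control they had 77.5%, 76.2% and 76.5%, in High ×2.5 77.4%, 75.3% and 75.3%, and in High ×5 74.9%, 74.4% and 75.6%. The Low treatments overlapped each other, whereas the 3 High ×5 libraries all lay below the 3 High Control libraries. Over all CpGs the High ×5 libraries also lay below those of High Control, with 67.6% to 68.7% against 68.8% to 69.6%.

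Treatment means ran from 74.7% ± 1.52 (SD, n = 3) in Low Control and 75.0% ± 0.605 in High ×5 to 76.5% ± 0.849 in Low ×5 and 76.7% ± 0.721 in High Control. High ×2.5 had 76.0% ± 1.21 and Low ×2.5 had 76.4% ± 0.664. After each library was centred on its median the order changed, with 75.7% in Low Control, in Low ×5 and in High ×5, so the higher level of Low ×5 over Low Control was not there on that scale. The members' mean exceeded the mean of all CpGs by 6.21 to 7.91 points in each of the 18 libraries. That margin was 6.21 to 6.78 points in Low Control and 7.28 to 7.91 points in High Control, which did not overlap. With 3 libraries against 3, an exact two-sided permutation test cannot go below a p of 0.1, and the members were not scored with a test.

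**Figure D2:**
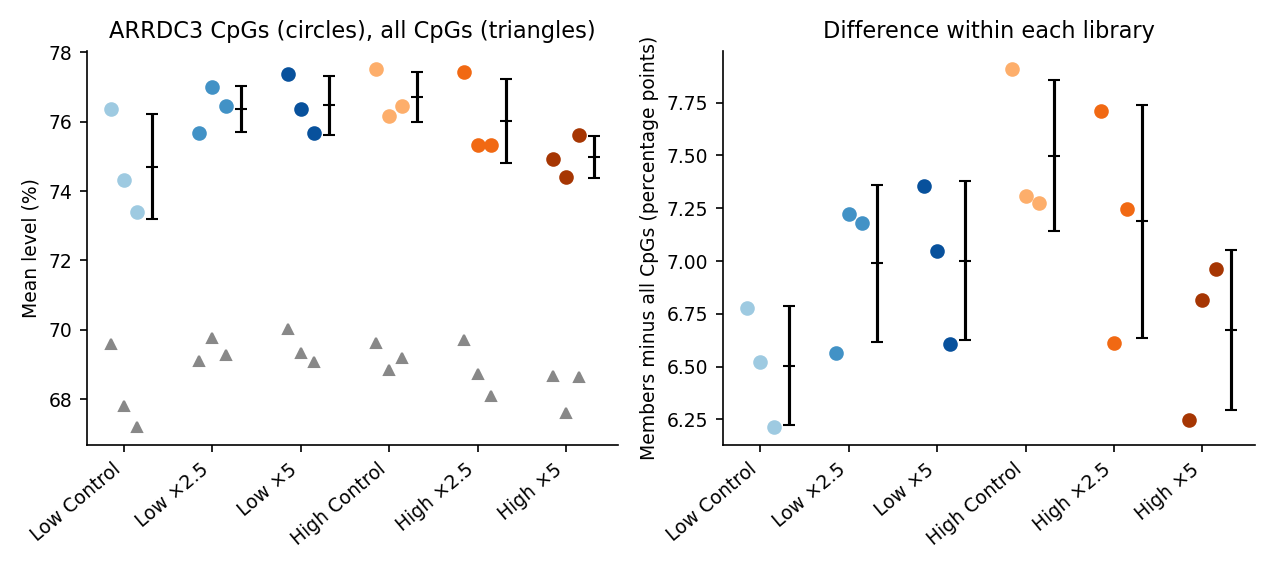
Left, mean methylation level (%) of the 127 members (coloured circles) and of all CpGs (grey triangles) in each library, by treatment. Right, the members' mean minus that of all CpGs (percentage points). Black bars are the treatment mean ± SD of the circles (n = 3). The left axis does not start at 0; members sit 6.21 to 7.91 points above all CpGs in every library.

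Low Control or High ×5 was the lowest of the 6 treatments at most members. Low Control was lowest at 37 members and High ×5 at another 37, 29.1% of the members each, while over all CpGs the shares were 28.4% and 24.5%. High Control was highest at 36 members (28.3%), against 17.1% of all CpGs. Within a member, the highest and lowest treatment means were a median of 6.43 points apart, close to the 6.77 points over all CpGs, and 25 members (19.7%) had a range of at least 10 points, against 23.1% of all CpGs.

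Each treatment contrast was tested CpG by CpG with limma, a linear model fitted to the M-values of all 31500 CpGs and 18 libraries. Differences are log2 differences in M-value, the first treatment minus the second, and a CpG higher in the first is called methylated, a lower one demethylated. A call was made where the unadjusted p-value was under 0.01, the threshold of the study, and the Benjamini-Hochberg adjusted p-value over all 31500 CpGs is given beside it. No member had an adjusted p-value under 0.05 in any test by limma. The smallest was 0.199, in a test of the interaction of glucose and EM, and within the 10 contrasts it was 0.340.

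EM in High cells was the question of 3 contrasts. In High ×5 vs High Control 3 members were called, 2 methylated and 1 demethylated, where 1.37% of all CpGs were called, and the median difference was -0.13 over the members and -0.08 over all CpGs. In High ×2.5 vs High Control 1 member was called (1.02% of all CpGs), and in High ×5 vs High ×2.5 1 member was called (1.47% of all CpGs). The matching contrasts with Control in Low cells gave more calls, and so they did over all CpGs. In Low ×5 vs Low Control 4 members were called (2.4% of all CpGs) and in Low ×2.5 vs Low Control 4 members (2% of all CpGs), with medians of 0.12 in both over the members and of 0.10 in both over all CpGs. Low ×5 and Low ×2.5 differed at 0 members by limma (0.371% of all CpGs), with 3 members at an unadjusted p-value under 0.05.

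Glucose was compared at each EM level. In High ×5 vs Low ×5 3 members were called (1.61% of all CpGs), in High ×2.5 vs Low ×2.5 1 member (1.01% of all CpGs) and in High Control vs Low Control 4 members (1.92% of all CpGs). The median difference in the last of these was 0.15 over the members and 0.08 over all CpGs, and 90 of the 127 members (70.9%) were higher in High Control, against 59.3% of all CpGs. In High ×5 vs Low Control, where both glucose and EM differ, 4 members were called (1.75% of all CpGs).

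The 10 contrasts together gave 25 calls in 1270 tests, 1.97%, against 1.49% for all CpGs, so the share was near the background. Of these calls, 16 were methylated and 9 demethylated. The split over all CpGs is not given here, so no lean of the members is read from it. The 4 contrasts with Low Control held 16 of the 25 calls, a share of 3.15% of their tests where all CpGs had 2.02%, and the other 6 contrasts held 9 calls, 1.18% against 1.14%. Contrasts that share a treatment use the same libraries, so repeated calls at a CpG are not separate evidence.

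The calls fell on 13 members, and the other 114 were called in no contrast. Of the 13, 9 CpGs were called once and 1 was called in 2 contrasts, whereas the 3 CpGs called in at least 3 contrasts (CpG 1, CpG 74 and CpG 99) accounted for 14 of the 25 calls. Without CpG 74, which alone had 7, the other 126 members had 18 calls, 1.43% of their tests. Those 18 still include the calls at CpGs 1, 49, 61, 68 and 99, which the study listed on these same libraries. The called differences had sizes of 0.70 to 1.69 on the log2 scale, or 1.81 to 17.4 percentage points, and 10 of them were of at least 10 points. In 21 of the 25 calls the 3 libraries of one treatment lay apart from the 3 of the other, which a small p-value makes likely. No share over all called CpGs stands beside that count, so it says nothing particular to the members.

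**Figure D3:**
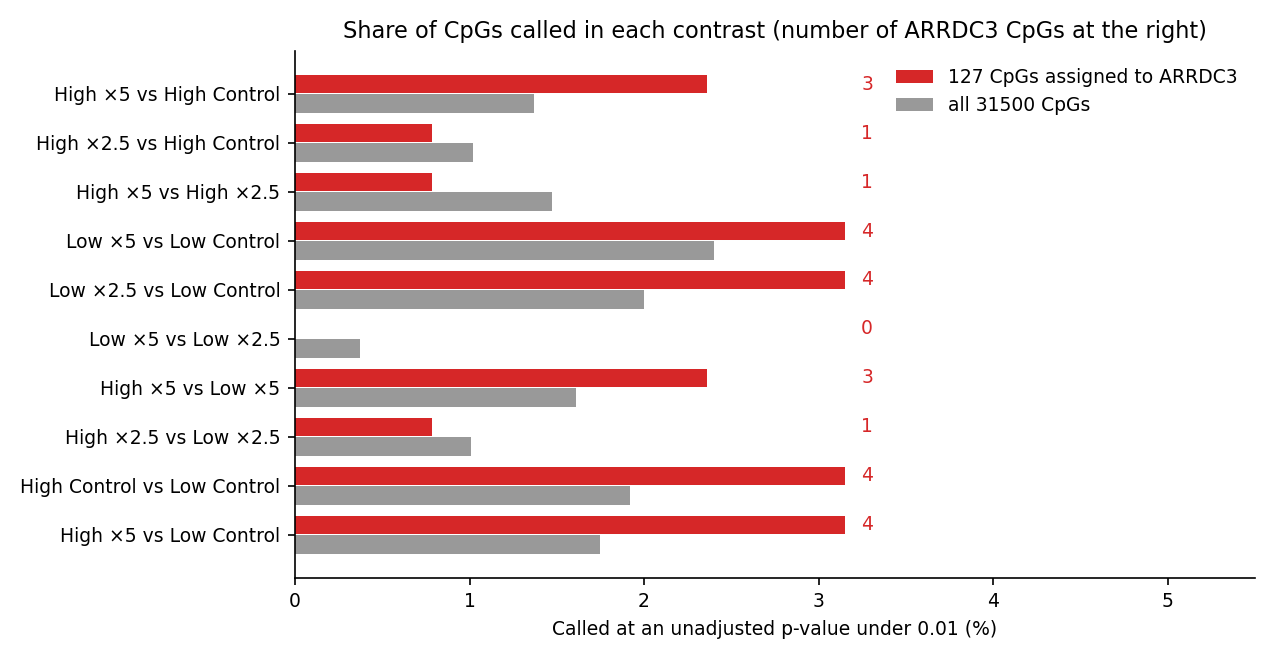
Percent of CpGs called at an unadjusted p-value under 0.01 in each of the 10 contrasts, for the 127 members (red) and for all 31500 CpGs (grey), with the number of members called beside the bars. The red bars stand for 0 to 4 CpGs each, and the 4 contrasts with Low Control have 4 each.

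CpG 1 (93156072) was methylated in all 4 contrasts with Low Control. Its levels were 86.2%, 75.0% and 68.8% in Low Control, 91.2%, 90.5% and 90.5% in Low ×2.5, and 88.3%, 89.6% and 89.2% in Low ×5. In High cells they were 91.8%, 92.9% and 90.4% at Control, 89.6%, 80% and 86.4% at ×2.5, and 89.5%, 86.7% and 86.7% at ×5. All 3 Low Control libraries lay below the libraries of Low ×2.5, Low ×5, High Control and High ×5. The spread was widest there too, with an SD of 8.84 points against 0.404 to 4.88 points in the other treatments.

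Against Low Control the log2 difference of CpG 1 was 1.69 in High Control (SE 0.33, adjusted p = 0.367), 1.5 in Low ×2.5 (adjusted p = 0.436), 1.23 in Low ×5 (adjusted p = 0.340) and 1.04 in High ×5 (adjusted p = 0.521). The F-test of any difference among the 6 treatments called it too (adjusted p = 0.630). All 4 calls stayed when the 6 libraries numbered replicate 1 were left out, whereas 2 stayed without replicate 2 and 1 without replicate 3. Its partner in the group, CpG 2 (93156098), had the widest treatment range among members never called, from 70.5% ± 11.8 (n = 3) in High ×2.5 to 87.0% ± 4.39 in Low ×5, 2 treatments that no contrast compared directly.

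CpG 99 (93162722) moved the other way. It had 85.8%, 84.6% and 81.6% in Low Control, 76.9%, 71.9% and 76.0% in Low ×2.5, and 78.3%, 78.4% and 76.4% in Low ×5, so that Low Control lay above both EM treatments. In High cells it had 75.5%, 71.8% and 78.9% at Control, 81.0%, 81.1% and 75.0% at ×2.5, and 76.4%, 78.1% and 73.7% at ×5, all below Low Control.

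CpG 99 was thus demethylated against Low Control in Low ×2.5 (log2 difference -0.82, SE 0.22, adjusted p = 0.436), in High Control (-0.78, adjusted p = 0.471) and in High ×5 (-0.73, adjusted p = 0.496). The differences were 9.11, 8.61 and 7.96 points. None of the 3 calls stayed without the replicate 1 libraries or without those of replicate 2, and 2 stayed without replicate 3.

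CpG 113 (93163119) was methylated in both EM treatments of Low cells. Its levels were 67.4%, 47.4% and 64.7% in Low Control, against 74.2%, 79.2% and 78.4% in Low ×2.5 and 79.7%, 76.0% and 75.7% in Low ×5. In High cells the treatments overlapped, with 60.5% to 71.4% at Control, 68.2% to 83.3% at ×2.5 and 59.5% to 77.8% at ×5. The log2 differences from Low Control were 1.18 in Low ×2.5 (SE 0.39, adjusted p = 0.485) and 1.17 in Low ×5 (adjusted p = 0.407), and the 17.4 points in the first were the largest called difference in level among the members. Neither call stayed when the libraries were centred on their medians, nor without the libraries of any 1 replicate number.

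The cytosine opposite did not share these calls. CpG 114 (93163120), 1 bp from CpG 113, had 78.3% in Low Control, 79.9% in Low ×2.5 and 75.3% in Low ×5 (adjusted p = 0.945 and adjusted p = 0.853 against Low Control). The same held for CpG 111 (93163098), with 61.4% ± 13.6 (n = 3) in Low Control and 78.4% ± 5.02 in High Control (log2 difference 1.18, SE 0.35, adjusted p = 0.503), whose partner CpG 112 (93163099) had 68.8% and 69.8% (adjusted p = 0.973). CpG 101 (93163033) was methylated in High ×5 vs High Control, 81.8% against 70.7% (1.02, SE 0.35, adjusted p = 0.718), while its partner CpG 102 (93163034) had 82.8% and 85.6% (adjusted p = 0.921). In these 3 pairs 1 cytosine was called, and in 0 of the 14 pairs were both called. The same counts over the 6516 pairs of the table are not given here, so these counts say nothing particular to the members. Whether the 2 cytosines of a pair differed in their response was not tested.

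**Figure D4:**
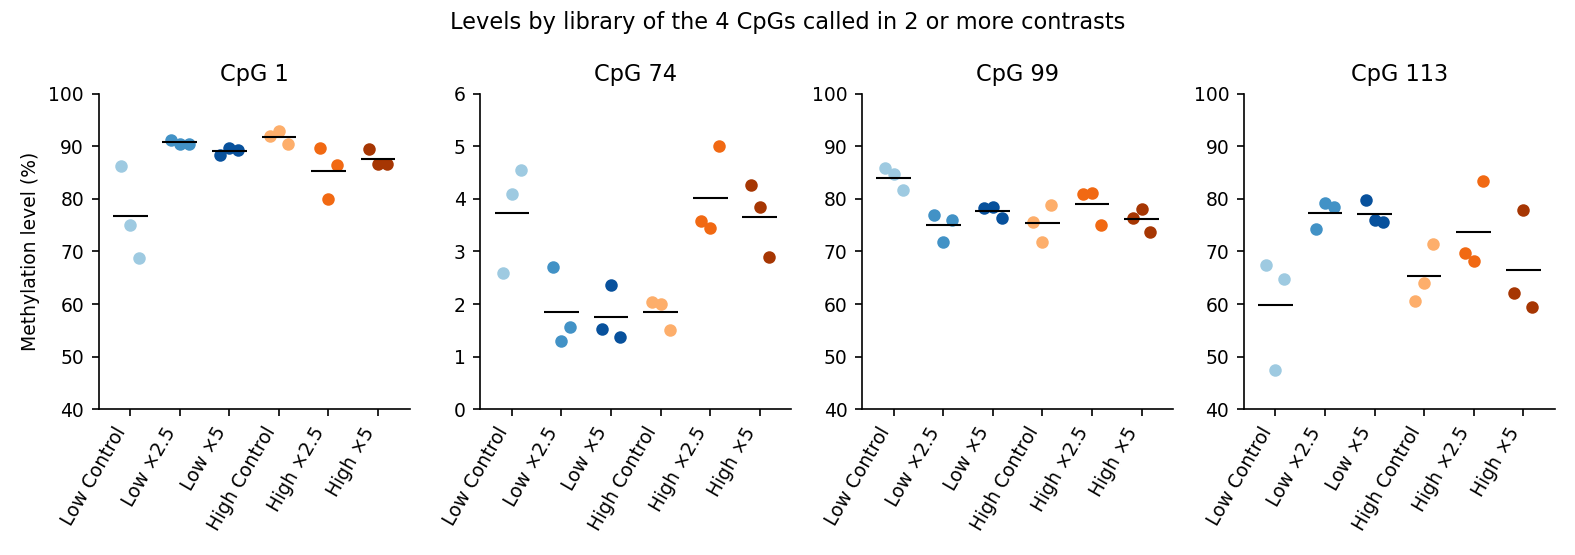
Methylation level (%) by library and treatment for the 4 members called in 2 or more contrasts, with each library as a point and the treatment mean as a line (n = 3). Vertical axes start at 40 except for CpG 74, whose axis runs from 0 to 6; the Low Control libraries lie low at CpG 1 and CpG 113 and high at CpG 99.

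CpG 74 (93162246), the nearly unmethylated member, was called most often, and its called differences in level were the smallest among the called members. Its levels were 2.59%, 4.08% and 4.55% in Low Control, 2.70%, 1.29% and 1.57% in Low ×2.5, and 1.53%, 2.37% and 1.38% in Low ×5. In High cells they were 2.04%, 2.0% and 1.52% at Control, 3.57%, 3.45% and 5.00% at ×2.5, and 4.26%, 3.85% and 2.88% at ×5. EM thus went with lower levels in Low cells and higher levels in High cells, with treatment means between 1.76% ± 0.531 (n = 3) and 4.01% ± 0.863.

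The 7 calls of CpG 74 had log2 differences between 1.00 and 1.20 in size, which correspond to 1.81 to 2.15 percentage points. The largest was 1.20 (SE 0.32, adjusted p = 0.945) in High ×2.5 vs Low ×2.5, and the F-test called this CpG as well (adjusted p = 0.630). None of the 7 calls was made when the levels were tested as fractions, and none without the replicate 3 libraries.

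Other nearly unmethylated CpGs moved with it between libraries. Over the 18 libraries, the M-value of CpG 74 went with the mean M-value of the 135 other CpGs of the table that had a mean level under 5% (Pearson's r = 0.808 and Spearman's rho = 0.845, each with a permutation p of 2e-05, the smallest that the permutations could give, and an adjusted p of 6e-05 over 3 such relations). Without the libraries Low Control 3 and Low Control 2, the farthest from the median of those 135 CpGs, r was 0.785, and for deviations from the treatment means it was 0.712. The same relation had r = -0.690 for CpG 1 (permutation p = 0.0036, adjusted p = 0.0054; rho = -0.546, permutation p = 0.022, adjusted p = 0.033), falling to -0.316 without those 2 libraries and to -0.542 for deviations from the treatment means, and r = 0.280 for CpG 99 (permutation p = 0.263, adjusted p = 0.263; rho = 0.214, permutation p = 0.392, adjusted p = 0.392), which was -0.341 for deviations from the treatment means. The relation of CpG 1 thus rests in part on Low Control 3 and Low Control 2. The 3 CpGs were taken because they were called between these same treatments, so the p-values also carry treatment differences. No p-value was computed for the deviations.

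In Low ×5 vs Low Control the 135 CpGs differed by a mean of -1.04, against -1.12 for CpG 74, and 48 of them (35.6%) were called. In High ×5 vs High Control the values were 0.43 and 1.00, with 1 of the 135 called. They were 0.41 and 1.20 in High ×2.5 vs Low ×2.5 and 0.33 and 1.14 in High ×2.5 vs High Control, with 1 called in each. The values were -0.78 and -1.07 in Low ×2.5 vs Low Control (14 called) and 0.77 and 1.11 in High ×5 vs Low ×5 (16 called). In High Control vs Low Control they were -0.70 and -1.01 (9 called). What the M-value of a CpG near 0 owes to read depth, to the offset or to bisulfite conversion was not tested.

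**Figure D5:**
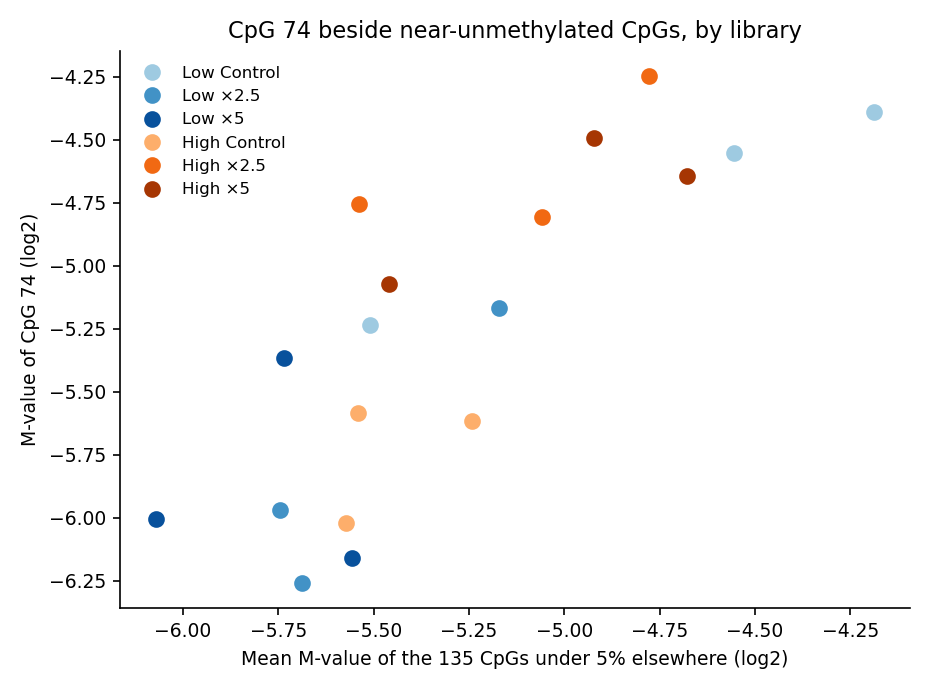
M-value (log2) of CpG 74 against the mean M-value (log2) of the 135 CpGs elsewhere in the table with a mean level under 5%, 1 point per library, coloured by treatment. The points rise together (r = 0.808, n = 18), with Low Control 3 and Low Control 2 at the right end.

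The remaining calls were 1 each. High ×5 was lower than Low ×5 at CpG 49 (93159770), 72.8% ± 3.58 against 84.2% ± 4.77, and at CpG 61 (93161981), 85.8% ± 4.50 against 94.9% ± 2.01 (log2 differences -1.03 and -1.68, adjusted p = 0.579 and adjusted p = 0.568). High ×5 was higher than Low Control at CpG 68 (93162096), 74.3% ± 5.44 against 61.8% ± 3.50 (0.85, SE 0.23, adjusted p = 0.490), and at CpG 55 (93159864), 86.9% ± 1.61 against 77.1% ± 7.36 (0.95, SE 0.31, adjusted p = 0.548). Each of these treatments had 3 libraries, and the groups did not overlap at the 4 CpGs, as a small p-value makes likely.

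CpG 80 (93162382) was the only member called in High ×5 vs High ×2.5, with 92.1% ± 0.847 against 85.4% ± 4.70 (log2 difference 0.96, SE 0.26, adjusted p = 0.643, n = 3 each). CpG 23 (93157512) was demethylated in High ×5 vs High Control, with 81.7% ± 2.88 against 88.0% ± 1.14 (-0.70, SE 0.23, adjusted p = 0.675). CpG 69 (93162102) was methylated in Low ×5 vs Low Control, with 84.6% ± 2.40 against 75.2% ± 6.53 and groups that overlapped (0.84, SE 0.28, adjusted p = 0.409). CpGs 23, 55, 69 and 101, and the cytosines named as neighbours or partners, were chosen for mention after their values were seen.

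The study's tables assign 10 of the members to ARRDC3, CpGs 1, 4, 49, 52, 61, 68, 71, 93, 99 and 127, and they were chosen on these libraries, so their calls are not independent evidence. CpGs 1, 49, 61, 68 and 99 among them were called here. Of the other 5, CpG 4 (93156262) had 24.2% ± 12 in Low Control and 40.4% ± 2.56 in High Control (log2 difference 1.19, SE 0.44, adjusted p = 0.535, n = 3 each), and CpG 127 (93165390) had 76.1% ± 7.16 in Low ×2.5 and 61.5% ± 2.46 in High ×2.5 (-1.03, SE 0.38, adjusted p = 0.945). CpG 52 (93159811), CpG 71 (93162207) and CpG 93 (93162648) had mean levels of 86.4%, 72.6% and 80.7% and adjusted p-values of 0.709, 0.668 and 0.633 in the contrast where each had its smallest p-value.

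By position, the 28 neighbouring CpGs between 93161981 and 93162484 held 11 of the 25 calls at 5 CpGs, 7 of them at CpG 74. Without CpG 74 this group had 4 calls in 270 tests (1.48%), near the 1.49% of all CpGs. The 18 CpGs between 93163020 and 93163140 held 4 calls in 180 tests (2.22%) at 3 CpGs. Whether calls were unevenly placed was not tested.

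Mean M-values of whole clusters, runs of at least 3 tested CpGs with gaps under 100 bp, were tested in the same way over the 2663 clusters of the table. Of these, 11 clusters held 123 of the members, and 2 of their 110 tests over the 10 contrasts were called, where 1.84% of all cluster tests were called. Both were at the upper end, in the cluster of 10 CpGs (8 of them members) between 93165186 and 93165461, which was demethylated in High ×5 vs High Control (log2 difference -0.31, SE 0.11, adjusted p = 0.498) and vs Low Control (-0.33, SE 0.11, adjusted p = 0.614). No single member of that cluster was called. Over its 8 members the level was 63.7% in High ×5 and between 66.4% and 67.8% in the other treatments. Neither call stayed when the libraries were centred on their medians.

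Whether glucose acted over all EM levels was tested as the High mean minus the Low mean. Only 1 member was called, where 1.08% of all CpGs were called, CpG 95 (93162660), with a log2 difference of 0.58 (SE 0.18, adjusted p = 0.905). Its levels were 93.6% ± 0.856 in High Control, 93.6% ± 0.857 in High ×2.5 and 91.9% ± 1.45 in High ×5, against 89.2% ± 5.36, 90.0% ± 2.20 and 90.1% ± 0.375 in the matching Low treatments (n = 3 each). The F-test of the 6 treatment means called 2 members, CpG 1 and CpG 74, where 1.44% of all CpGs were called.

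Whether the effect of EM differed between High and Low cells was tested as an interaction, the EM difference in High cells minus that in Low cells. At ×5 the test called 4 members, 3.15%, near the 2.79% of all CpGs, CpG 1, CpG 61, CpG 72 (93162214) and CpG 74, and at ×2.5 it called 3, 2.36% beside 1.85% of all CpGs, CpG 1, CpG 74 and CpG 99. At CpG 72 the levels were 88.1% ± 4.15 in High Control and 81.1% ± 0.533 in High ×5, against 80.2% ± 3.77 in Low Control and 86.7% ± 2.10 in Low ×5 (interaction -1.53, SE 0.49, adjusted p = 0.322, n = 3 each). The median interaction over the members was -0.27 at ×5 and -0.14 at ×2.5, and over all CpGs it was -0.18 and -0.12. A cluster that holds members was also called at ×5 (-0.46, SE 0.15, adjusted p = 0.143). It has 26 CpGs between 93155862 and 93156098, and its 2 members include CpG 1, which the same test called. The share of all clusters called in this test is not given here, so the call is a description.

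The regions of the table whose mean M-value varied most like that of the members were assigned to other genes. Each library was centred on its median, and the mean M-value of the members was correlated with that of each region over the 18 libraries. Pearson's r was 0.667 with the region of 100 CpGs assigned to MAPK8, a stress-activated kinase. With the region of 51 CpGs assigned to VIPR2, a G protein-coupled receptor for the peptides VIP and PACAP, r was 0.599. With the region of 46 CpGs assigned to DUSP11, an RNA phosphatase, r was 0.586. These were the highest of 422 regions, whose median r was -0.003, and without the 2 libraries farthest from the members' median they were 0.736, 0.521 and 0.337. As deposited, the median r over the regions was 0.651. These values are a description of 18 libraries, and the highest of many correlations is large by selection.

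Other genes of receptor signalling had CpGs in the table, and the study chose them on these libraries too. Here a CpG counts as assigned if it lies between the outermost CpGs that the study lists for the gene. The 93 CpGs assigned to ADCYAP1, which encodes the peptide PACAP, had 38 calls in 930 tests over the 10 contrasts (4.09%), 18 methylated and 20 demethylated. The 58 CpGs assigned to PLCB1, a phospholipase C downstream of G proteins, had 16 calls in 580 tests, 12 methylated and 4 demethylated. The 409 CpGs assigned to GNAI1, an inhibitory G protein alpha subunit, had 51 calls in 4090 tests (1.25%), 20 methylated and 31 demethylated. RGS7, a regulator of G protein signalling, had 1 demethylated call in 140 tests over 14 CpGs, and ADRA1A, an alpha-adrenergic receptor, had 1 methylated and 2 demethylated calls in 90 tests over 9 CpGs. The members' 1.97% lay between these shares and near the 1.49% of all CpGs.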

How the data were processed

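The authors trimmed RRBS reads with cutadapt, aligned them to bosTau8 with Bismark 0.22.3 and deposited log2 M-values, 1 column per library, for CpGs that passed their filter on coverage (a minimum of 10 reads and a cap on very deep CpGs); the processing notes also name FastQC 0.11.8 and MultiQC 1.9. The offset in the M-values and the read counts were not used here, and the filter and the normalization act before every value given. Columns of per-sample values left unused numbered 0. The members and lists were chosen with earlier results of these data known.

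Treatments came from the sample labels. limma 3.58.1 (R 4.3.3) fitted 1 mean per treatment to all 31500 CpGs and 18 libraries (lmFit, contrasts.fit, eBayes; two-sided), in place of a count model, because the values are not counts. The contrast that the methods list a second time was read as Low ×5 vs Low ×2.5. limma was tested on simulated data first. Correlations used 100000 permutations (SciPy 1.17.1). CpGs were named if listed for ARRDC3 in the study's tables, called with the smallest p-value of a contrast, called in at least 3 contrasts or by the F-test, glucose or interaction tests, at the lowest or highest level, or among the widest treatment ranges; others are marked as chosen after their values were seen. Alternatives were robust and trended variances, a replicate block, libraries left out by replicate number, centred libraries, levels as fractions, fits on the libraries of 1 contrast, adjusted p-values and CpGs at 10% to 90% only. Scaling the libraries to equal SD was added after seeing the data.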

Additional observations from a re-analysis of the deposited data

Results flagged for a closer look

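Opposite or unequal effects of EM in High and Low cells were found at 5 of the members, in 7 interaction tests by limma at an unadjusted p-value under 0.01. They were 4 members at ×5 (3.15%, against 2.79% of all CpGs) and 3 at ×2.5 (2.36%, against 1.85%), shares near those of the table, and none had an adjusted p-value under 0.05. Values are log2 differences, EM minus Control in High cells minus the same in Low cells. At CpG 74 (93162246) the interaction was 2.12 at ×5 (1.00 in High and -1.12 in Low cells, adjusted p = 0.199) and 2.21 at ×2.5 (1.14 and -1.07, adjusted p = 0.423). At CpG 1 (93156072) it was -1.88 at ×5 (-0.65 and 1.23, adjusted p = 0.229) and -2.39 at ×2.5 (-0.89 and 1.5, adjusted p = 0.423). At CpG 72 (93162214) it was -1.53 at ×5 (-0.85 and 0.68, adjusted p = 0.322), and at CpG 61 (93161981) it was -2.16 at ×5 (-0.86 and 1.30, adjusted p = 0.330). At CpG 99 (93162722) it was 1.12 at ×2.5 (0.30 and -0.82, adjusted p = 0.461). The levels of CpG 74 lie near 0, and what its values owe to read depth or to the offset was not tested. The causes were not tested.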

How the results depend on the processing

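Of the 25 calls, 21 stayed with robust and trended variances, 20 with libraries centred on their medians, 18 with libraries also scaled to equal SD (added after seeing the data), 16 with levels as fractions and 10 with only the 6 libraries of the contrast, and none changed sign. All 18 calls at CpGs between 10% and 90% stayed when only such CpGs were tested. With adjusted p-values under 0.05 each of the 10 contrasts had 0 calls.

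The replicate numbers did not pair the libraries (median r of deviations -0.000275 over 45 same-numbered pairs, 1 above 0.1). A replicate block kept 21 of the 25 calls, with 2 members in Low ×5 vs Low Control in place of 4 and 1 cluster call in place of 2.

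Without replicate 1, 14 calls stayed, and without replicate 2 or replicate 3, 5 each. Leaving out 1 replicate number gave 0 to 4 members in High ×5 vs High Control, 1 to 5 in High ×2.5 vs High Control, 0 to 3 in High ×5 vs High ×2.5, 1 to 4 in Low ×5 vs Low Control, 1 to 6 in Low ×2.5 vs Low Control, 0 to 2 in Low ×5 vs Low ×2.5, 1 to 2 in High ×5 vs Low ×5, 2 to 3 in High ×2.5 vs Low ×2.5, 1 to 6 in High Control vs Low Control, 1 to 4 in High ×5 vs Low Control, 0 to 5 for High vs Low, 3 to 5 and 1 to 4 for the interactions at ×5 and ×2.5, 0 to 4 for the F-test and 0 to 3 for clusters.

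Robust variances gave 0 calls in High ×5 vs High Control. Levels as fractions gave 1 in High ×5 vs High Control and in High ×5 vs Low ×5, 0 in High ×2.5 vs High Control and vs Low ×2.5, 2 for the interaction at ×5 and 1 for the F-test. The libraries of the contrast alone gave 1 in High ×5 vs High Control, 0 in High ×5 vs High ×2.5 and vs Low Control, 5 in High ×5 vs Low ×5, 2 in Low ×5 and in High Control vs Low Control, and 1 in Low ×2.5 vs Low Control. CpGs at 10% to 90% gave 0 in High ×2.5 vs High Control, in High ×2.5 vs Low ×2.5 and for High vs Low, and 1 for the F-test. Centring gave 2 for High vs Low, 4 for the F-test, 0 clusters and a mean level of 75.7% in High ×5, and equal SD gave 2 in Low ×5 vs Low Control, 2 for High vs Low and 4 for the F-test. The causes were not tested. Read depth, not analysed here, limits the precision of each level by an amount that was not worked out.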
